A study of Mus musculus with 12 samples.

Results

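Copy number around 8 genes of the p53 pathway and the DNA damage response was examined in 12 liver tumors of Mdr2-knockout (Mdr2-KO) mice. The genes were taken by name from a list of 9, Trp53, Mdm2, Mdm4, Atm, Atr, Chek1, Chek2, Brca1 and Brca2. The gene annotation of the arrays held 8 of these names with 17 probes, among 20466 gene names and 42235 mapped probes on the autosomes and X, and Atr was not analysed here. Mdr2-KO mice of the FVB strain lack Abcb4, a transporter that carries phospholipid into bile, and they develop chronic liver inflammation followed by hepatocellular carcinoma (HCC). One group held 6 tumors of mice killed at 9 months of age after 70% partial hepatectomy (PHx) at 3 or 6 months (post-PHx, 4 males and 2 females), and the other 6 tumors of untreated mice aged 13 to 14 months (spontaneous, 2 males and 4 females). DNA of each tumor (red channel) was hybridized on 1 array against DNA of non-tumor liver taken from the same animal away from the tumor (green channel), without a dye swap. Both channels of an array carry the knockout, so the ratio does not check the genotype. DNA carries no cell type markers by which the tissue could be checked. The paper describes the tumors as well differentiated HCC that consisted largely of tumor cells on histological sections. The groups also differed in age, which cannot be told apart from the operation in these data, and in the share of males.

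The p53 protein, encoded by Trp53, is a transcription factor that stops the cell cycle or starts apoptosis after DNA damage, and the proteins of Mdm2 and Mdm4 hold it down. The kinase ATM responds to double-strand breaks and signals through CHK2, whereas ATR responds to stalled replication forks and signals through CHK1. The BRCA1 and BRCA2 proteins serve the repair of breaks by homologous recombination. Comparative genomic hybridization reads gains and losses of DNA only, and it does not read point mutations, balanced rearrangements or expression of these genes. The paper also reports expression arrays of the post-PHx tumors, which were not used here.

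The value of a gene in a tumor was the mean centred log2 ratio, tumor over matched liver, of its own probes and the 10 nearest mapped probes on each side, here called the window value. Windows held 22 probes (23 for Brca2) and spanned from 0.292 Mb around Trp53 to 1.44 Mb around Chek1. A gain of 1 copy in every cell of a diploid genome gives 0.58 on this scale, and non-tumor cells in a tumor pull any value toward 0. An absolute window value of 0.4 (1.32-fold) was used as a mark. The arrays lay on 3 slides of 4 arrays. Slide 1 held PHx1M to PHx4M, slide 3 held Spon1M, Spon2M, Spon3F and Spon4F, and slide 2, with PHx5M, PHx6F, Spon5F and Spon6F, was the only slide with both groups. The median green signal was 7.07 to 16.9 times its background on post-PHx arrays and 13.9 to 25.9 times on spontaneous arrays. The noise between neighbouring probes (SD, log2) was 0.156 to 0.189 on post-PHx and 0.147 to 0.265 on spontaneous arrays, the highest being Spon2M.

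On slide 3, 3 arrays stood apart in a way that touches the results below. Isolated probes, more than 1 (log2) from the running median of 21 probes on the same array, numbered 430 in Spon1M, 505 in Spon2M and 1456 in Spon3F, against 8 to 105 on the other 9 arrays. Of these, 315 were shared by Spon1M, Spon2M and Spon3F. All 315 were low in Spon1M and in Spon3F, while 314 of them were high in Spon2M. Compared with the other 9 arrays, the median shift of these probes was -1.57 (log2) in the red and 0.028 in the green channel of Spon1M, and -1.89 in the red and -0.047 in the green channel of Spon3F. In Spon2M it was 0.023 in the red and -1.67 in the green channel. The tumor DNA thus gave less signal at these probes in Spon1M and Spon3F, and the matched liver DNA in Spon2M. Window values of the 8 genes on these 3 arrays are therefore given with and without isolated probes where the window holds any.

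None of the 8 genes was gained or lost as far as the 0.4 mark in a post-PHx tumor (0 of 48 gene and tumor pairs). Over all genes, 2.21% of pairs were past the mark in post-PHx tumors, every one of them a gain. In spontaneous tumors 3 of 48 pairs were past it, against 3.56% of all pairs, and all 3 were gains, namely Atm in Spon1M, Mdm4 in Spon2M and Brca1 in Spon2M. Without isolated probes Brca1 dropped out and 2 of 48 pairs of spontaneous tumors were past the mark, against 3.06% of all their pairs and 2.18% of all pairs of post-PHx tumors. No member was lost to -0.4 in a tumor. Over the whole array 2486 of 245592 gene and tumor pairs were (1.01%), all in spontaneous tumors (2.02% of their pairs). Without isolated probes they numbered 1928 (0.785%). These shares are near the background, so they say little about the 8 genes as a group.

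**Figure D1:**
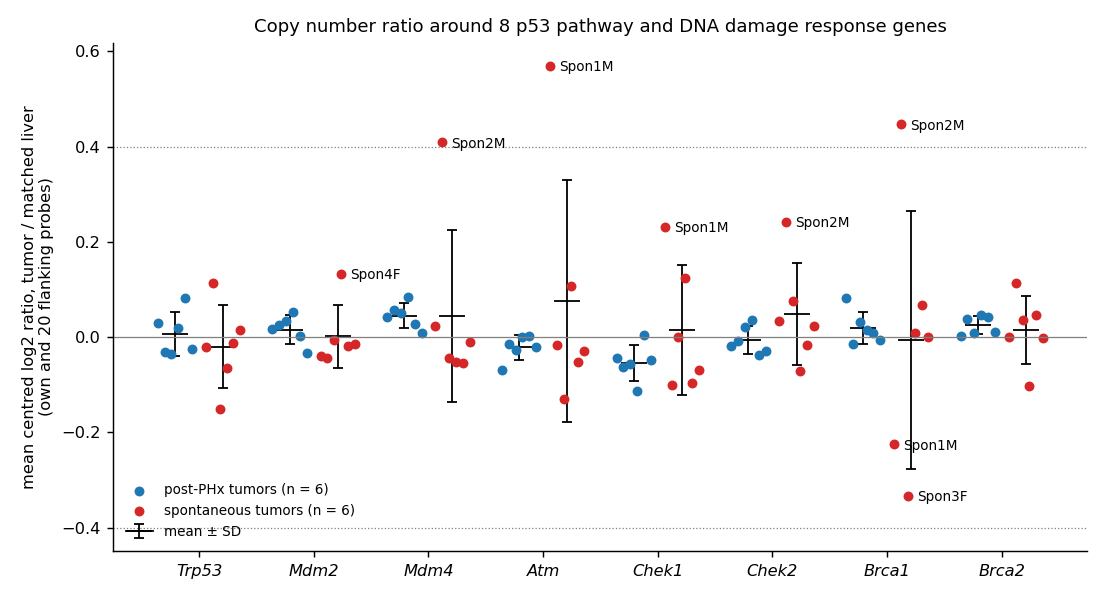
Window values (y axis, mean centred log2 ratio of tumor over matched liver) of the 8 genes (x axis), with 1 point per tumor, post-PHx in blue and spontaneous in red; bars give the mean ± SD of 6 tumors and dotted lines mark 0.4 and -0.4. Post-PHx tumors stayed between -0.11 and 0.084 for all 8 genes, and the spontaneous tumors farthest from 0 were Spon1M at 0.57 for Atm, Spon2M at 0.45 for Brca1 and 0.41 for Mdm4, and Spon3F at -0.33 for Brca1 (0.19 and -0.013 for Brca1 without isolated probes).

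Trp53 (chromosome 11, 69396256 to 69399873 on mm8, 2 probes) stayed near the level of the matched liver in all tumors. Its window values ranged from -0.036 (PHx3M) over a median of -0.0029 to 0.081 (PHx5M) in post-PHx tumors and from -0.15 (Spon3F) over a median of -0.016 to 0.11 (Spon2M) in spontaneous tumors. The groups overlapped, and no tumor stood apart. The value of Spon3F held 1 isolated probe at -1.19 outside Trp53 and was -0.099 without it. Spon2M at 0.11 was at the median of its whole chromosome 11 (0.11). The 2 Trp53 probes, 60 bases each, had medians of 0.081 and -0.027 over 12 tumors.

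The inhibitors of p53 lay on 2 chromosomes. Mdm2 (chromosome 10, 117098944 to 117108236, 2 probes), the ubiquitin ligase that marks p53 for degradation, ranged from -0.034 to 0.053 in post-PHx tumors. The highest, PHx4M, held 1 isolated probe at 1.74 and was -0.028 without it. In spontaneous tumors it was -0.040 in Spon1M, -0.044 in Spon2M, -0.0055 in Spon3F, 0.13 in Spon4F, -0.019 in Spon5F and -0.015 in Spon6F. Spon4F alone stood apart, and there the median of chromosome 10 as a whole was 0.16, so that the window lay at the level of its chromosome. Both groups overlapped. Only 1 of the 2 Mdm2 probes was measured in Spon5F, the other being marked as an outlier by the scanner software.

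Mdm4 (chromosome 1, 134836698 to 134851942, 2 probes), whose product binds and blocks the activation domain of p53, was above 0 in all 6 post-PHx tumors, from 0.0082 (PHx6F) over a median of 0.046 to 0.084 (PHx4M). With the median of the window's probes in place of the mean, Mdm4 was above 0 in 4 of 6. In spontaneous tumors it was 0.024 in Spon1M, 0.41 in Spon2M, -0.043 in Spon3F, -0.053 in Spon4F, -0.055 in Spon5F and -0.011 in Spon6F. Spon2M was high and the other 5 lay around 0. The window of Spon3F held 1 isolated probe at -2.34, and without it the value was 0.066. The window of Spon2M held no isolated probe and had an SD of 0.32 between its 22 probes. Chromosome 1 as a whole had a median of 0.28 in Spon2M, the highest of its 19 autosomes, so the window lay 0.13 above its chromosome. The medians of 13 of the 19 autosomes of Spon2M were farther than 0.1 from 0, from -0.42 to 0.28. The centred 0 of that array may therefore not be the level of 2 copies, for this and the other members. The value of Spon2M was close to the mark, ranging from 0.31 to 0.44 over 11 ways of computing it and reaching 0.4 in 3 of them. In PHx1M, 1 isolated probe at 1.52 stood in the window, and without it the value was -0.029 in place of 0.041.

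The kinase genes Atm and Chek1 both lie on chromosome 9, 16.7 Mb apart. Atm (53207827 to 53275593, 2 probes) was -0.069 to 0.0019 in post-PHx tumors with a median of -0.017. In spontaneous tumors it was 0.57 in Spon1M, -0.016 in Spon2M, -0.13 in Spon3F, 0.11 in Spon4F, -0.052 in Spon5F and -0.028 in Spon6F. Spon1M was 1.48-fold above its matched liver, and the other 11 tumors stayed between -0.13 and 0.11. Without its isolated probe at -2.35, Spon3F was at -0.024. The gain of Spon1M held no isolated probe, had an SD of 0.22 between 22 probes, and was seen in both Atm probes (0.70 and 0.69). Across 11 ways of computing it, the value ranged from 0.55 to 0.70.

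The gain around Atm was part of a larger step on chromosome 9 of Spon1M. The run of probes around Atm whose running median was at least 0.4 covered 9.70 Mb (50706199 to 60408454, 270 probes) with a mean of 0.52. In bins of 10 Mb, the medians of Spon1M were 0.20 to 0.22 between 0 and 40 Mb, 0.59 at 40 to 50 Mb, 0.55 at 50 to 60 Mb, 0.40 at 60 to 70 Mb, 0.35 at 70 to 80 Mb, and 0.21 to 0.22 from 80 Mb on. Every bin of Spon1M was thus above 0, and the bins from 40 to 80 Mb, among them that of Atm, lay higher than the rest, with the highest median in the bin before that of Atm. Chek1 (36459921 to 36472352, 2 probes), the kinase that acts below ATR, lay in the bin of 30 to 40 Mb (0.22), next to the raised bins.

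The window value of Chek1 was 0.23 in Spon1M, close to the level of the bins of chromosome 9 outside 40 to 80 Mb. It was -0.10 in Spon2M, -0.00055 in Spon3F, 0.13 in Spon4F, -0.096 in Spon5F and -0.068 in Spon6F, and it ranged from -0.11 (PHx4M) over a median of -0.052 to 0.0041 (PHx5M) in post-PHx tumors. Post-PHx tumors were thus a little below 0 in 5 of 6, and the groups overlapped. The value of Atm minus that of Chek1 was 0.34 in Spon1M and between -0.13 and 0.11 in the other 11 tumors.

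**Figure D2:**
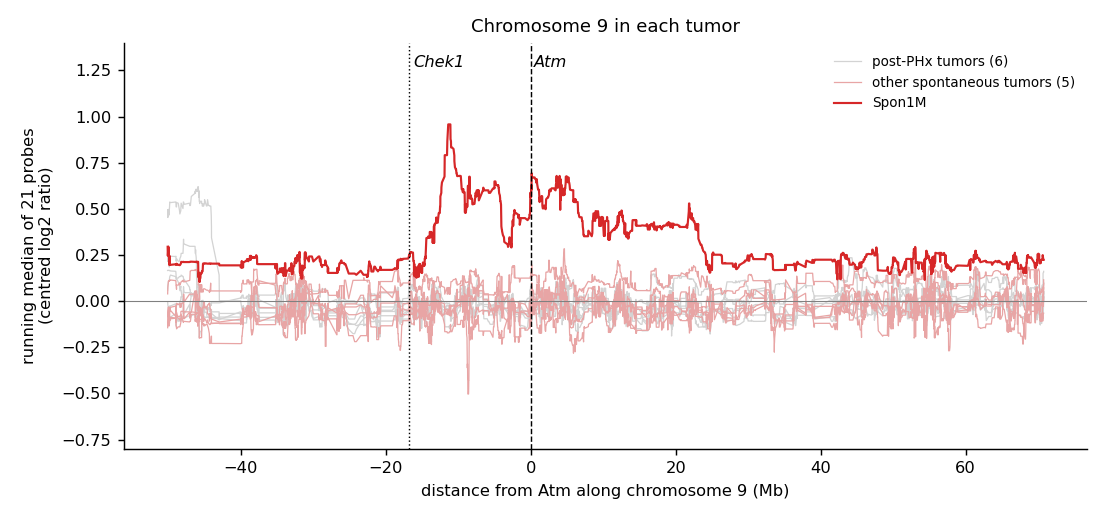
Running median of 21 probes (y axis, centred log2 ratio) along chromosome 9 by distance from Atm in Mb (x axis), Spon1M in red, the other 5 spontaneous tumors in pale red and the 6 post-PHx tumors in grey; vertical lines mark Atm and Chek1. Spon1M lay near 0.2 over most of the chromosome and higher over a stretch that holds Atm, with Chek1 16.7 Mb away and outside it.

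Chek2 (chromosome 5, 111098683 to 111114199, 2 probes), the kinase that acts below ATM, ranged from -0.037 to 0.036 in post-PHx tumors. It was 0.035 in Spon1M, 0.24 in Spon2M, 0.077 in Spon3F, -0.071 in Spon4F, -0.017 in Spon5F and 0.024 in Spon6F. Spon2M was the highest, with a median of 0.14 over the whole of its chromosome 5. The groups overlapped. In PHx1M, PHx2F and PHx3M only 1 of the 2 Chek2 probes was measured.

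Brca2 (chromosome 5, 150791303 to 150815330, 3 probes), which acts in homologous recombination, was above 0 in all 6 post-PHx tumors, from 0.0035 (PHx1M) over a median of 0.024 to 0.047 (PHx4M). With the median of the window's probes in place of the mean, Brca2 was above 0 in 3 of 6, and PHx4M was lowest at -0.018. In spontaneous tumors it ranged from -0.10 (Spon4F) over a median of 0.018 to 0.11 (Spon2M). Both of these extremes lay near the median of chromosome 5 in the same tumor, -0.089 in Spon4F and 0.14 in Spon2M. No isolated probe fell in the windows of Brca2, Chek1 or Chek2.

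Brca1 (chromosome 11, 101314063 to 101340887, 2 probes), which acts in damage signaling and in recombination, lies 31.9 Mb from Trp53 and had the widest spread of the 8 genes over the spontaneous tumors. Its window value was -0.22 in Spon1M, 0.45 in Spon2M, -0.33 in Spon3F, 0.0085 in Spon4F, 0.068 in Spon5F and 0.00084 in Spon6F, against -0.015 to 0.082 in post-PHx tumors. The 3 tumors that stood apart were those with many isolated probes. Each had 3 isolated probes in the window, from -2.46 to -0.93 in Spon1M, from 1.43 to 2.55 in Spon2M and from -3.14 to -1.29 in Spon3F, and none of them was a Brca1 probe. Without them the values were 0.043 in Spon1M, 0.19 in Spon2M and -0.013 in Spon3F, and the SD of Brca1 over spontaneous tumors fell from 0.27 to 0.075. The own probes of Brca1 averaged -0.16 in Spon2M, opposite in sign to its window.

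**Figure D3:**
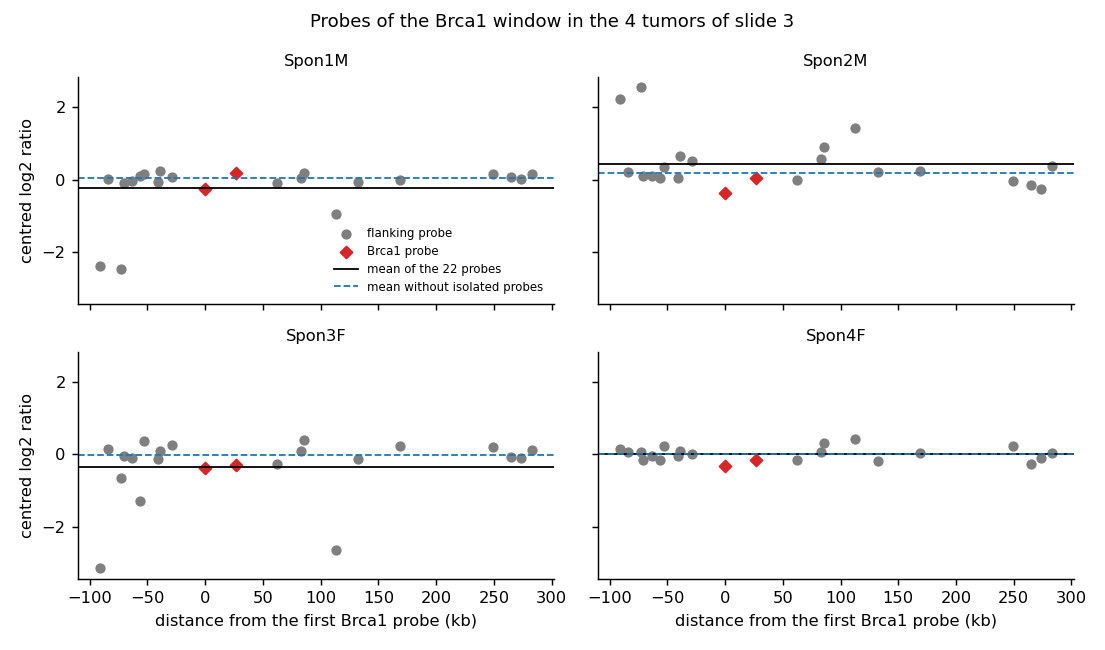
Centred log2 ratio (y axis) of each of the 22 probes of the Brca1 window by distance from the first Brca1 probe in kb (x axis) in the 4 tumors of slide 3; red diamonds are Brca1 probes, grey points flanking probes, and lines give the mean with (black) and without (blue, dashed) isolated probes. A few flanking probes lay far below the rest in Spon1M and Spon3F and far above it in Spon2M, moving the mean to -0.22, -0.33 and 0.45, while the mean in Spon4F was 0.0085.

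The 8 genes varied less among post-PHx than among spontaneous tumors. The SD over 6 tumors was larger in the spontaneous group for 8 of 8 members, with median SDs of 0.029 and 0.12. The same held for 85.1% of all 20466 genes, whose median SDs were 0.044 and 0.12, so the wider spread was shared with the array at large. Without isolated probes, the members' median SDs were 0.032 and 0.091, and the SD was again larger in spontaneous tumors for 8 of 8. The same then held for 84.0% of all genes, with median SDs of 0.043 and 0.105. Slide 3 and its isolated probes moved with this difference, and their further part in it was not tested.

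Whether the group means differed was tested with limma over all 20466 genes. No gene was called (0%) at an adjusted p under 0.05, with 1302 genes at an unadjusted p under 0.05, none of them a member. Adjusted p-values of the 8 members were 0.979 or higher. The difference, post-PHx minus spontaneous, was 0.026 ± 0.044 (SE) for Trp53, with a 95% interval of -0.068 to 0.12. Intervals reached from -0.30 to 0.11 for Atm, from -0.19 to 0.24 for Brca1 and from -0.15 to 0.15 for Mdm4. They reached from -0.19 to 0.054 for Chek1 and from -0.16 to 0.049 for Chek2. Shifts of this size thus remain within the error for these genes. For Mdm2 the interval was -0.065 to 0.094, and for Brca2 it was -0.070 to 0.090. The values of both groups overlapped for all 8 genes. They did not overlap for 61 of all genes (0.298%).

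Slide 2 alone, with 2 tumors of each group, gave differences from -0.036 (Chek2) to 0.060 (Chek1), and the fit with slide as a block gave the same values since no other slide holds both groups. The sign for Mdm4, Atm, Chek1 and Brca1 was then opposite to that over 12 tumors, and no member was called in either fit. Without Spon1M, Spon2M and Spon3F, no gene was called either, and the lowest adjusted p of the members' differences was 0.606, for Mdm4 (0.085).

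Tumor was also set against matched liver within each group, with the spread of a gene estimated from all 12 tumors together. The SE was thus the same in both groups, as in Mdm4 (0.050), whose SD was 0.026 in post-PHx and 0.18 in spontaneous tumors. For genes that varied more in spontaneous tumors, this test is stricter on post-PHx tumors than their own spread would be. No fit with a separate spread for each group was run. In post-PHx tumors no gene was called (0%) and 1411 had an unadjusted p under 0.05, none a member. From own probes alone 540 genes were called there (2.64%), none of them a member. After normexp background correction, applied without dye normalization, 5 genes were called, again none a member. In spontaneous tumors no gene was called (0%) and 3383 had an unadjusted p under 0.05, again none a member. The group means of the members lay between -0.053 (Chek1) and 0.045 (Mdm4) in post-PHx and between -0.020 (Trp53) and 0.075 (Atm) in spontaneous tumors. The count in spontaneous tumors depended on the processing. It was 807 genes after normexp, 604 without Spon5F and 307 after centring on the mode. With slide as a random block it was 672, and with sex as a covariate 1187. No member was among the genes called in these fits. From own probes alone 848 genes were called (4.14% of all genes, 2.03% lower), among them 1 of the 8 members, Brca1 (lower).

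The own probes of each gene were then compared with their 20 flanking probes over all 12 tumors, which asks whether a gene stands apart from its surroundings. Atm did. Its own probes lay above the flanks in 12 of 12 tumors, by 0.0061 (Spon6F) to 0.31 (PHx6F), with a mean of 0.19 ± 0.028 (SE, limma adjusted p = 0.000627). Set against 0 and not against the flanks, the first Atm probe was higher in 12 and the second in 11 of 12 tumors. In Spon6F the second probe was at -0.22, below the flanks at -0.029. Of all genes, 12.9% were called with own probes higher and 10.2% with own probes lower, 23% together, so that 1 of 8 members is not more than the background. After normexp background correction, applied without dye normalization, the offset of Atm was 0.022 ± 0.029 and no longer called (adjusted p = 0.575). Over all alternatives the adjusted p ranged from 0.000221 to 0.575. Whether the background correction or the missing dye normalization moved the offset was not tested.

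Brca1 showed the opposite offset. Its own probes lay below the flanks in 10 of 12 tumors, by -0.16 ± 0.058 on average (adjusted p = 0.063). Spon2M was lowest at -0.67 and Spon1M highest at 0.21, both through flanking probes. Without isolated probes the offset was -0.19 ± 0.031 and was called (adjusted p = 0.00064, range over all alternatives 0.00064 to 0.227). In that fit 28.5% of all genes were called, 13.5% with own probes lower. The offset of Brca1 was called in 9 of 28 settings. The first Brca1 probe was below 0 in 12 of 12 tumors and the second in 7 of 11. Since the same probes were read on every array, an offset shared by all tumors and a property of the probes cannot be told apart.

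For the other 6 members the mean offset lay between -0.019 (Mdm2) and 0.048 (Trp53), with adjusted p-values from 0.239 upward. After normexp 5 of these 6 were called, with Trp53 at 0.13, Mdm4 at 0.11, Chek1 at 0.12 and Brca2 at 0.13 above their flanks and Chek2 at -0.18 below (adjusted p = 0.00024 to 0.0115), where 45.3% of all genes were called. Mdm2 varied most among them, from -0.29 in Spon5F, where it rested on 1 probe, to 0.20 in Spon2M.

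**Figure D4:**
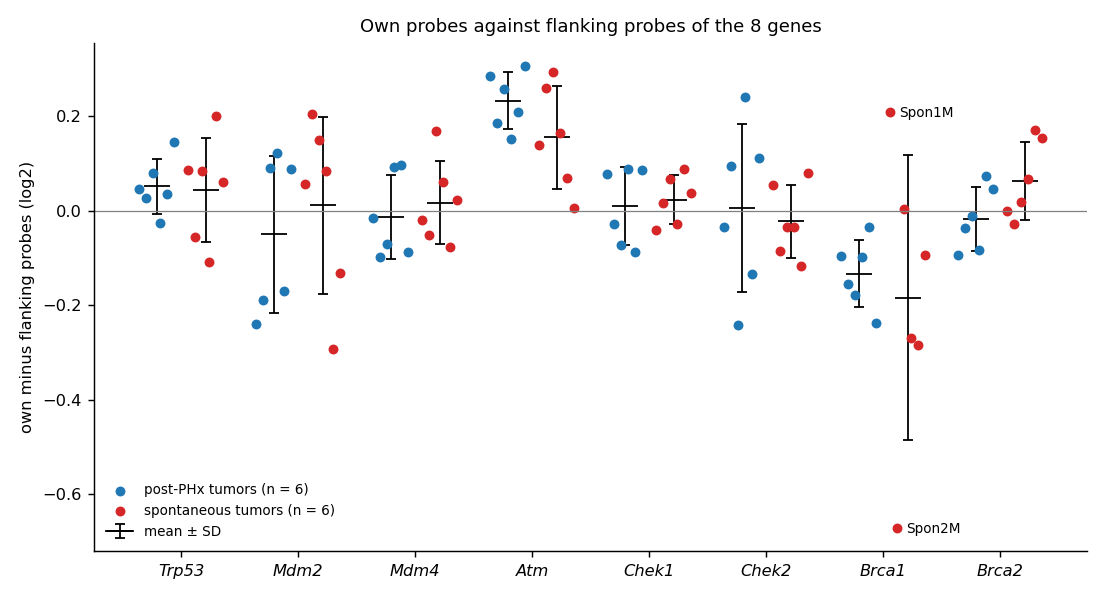
Mean of a gene's own probes minus the mean of its 20 flanking probes (y axis, log2) for the 8 genes (x axis), 1 point per tumor, post-PHx in blue and spontaneous in red, with mean ± SD of 6 tumors. Atm lay above 0 in all 12 tumors and Brca1 below 0 in 10 of 12, with Spon2M at -0.67.

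Other genes of the pathway were taken from a list of 71 in 5 roles, of which 63 were found by name. Ing1, Bax, Btg2, H2afx, Mdc1, Atrip, Rad9 and Fancg were not matched, and Kat5 was read under its older name Htatip. No gene of the list was called between the groups or within a group against 0, with 4, 2 and 12 genes at an unadjusted p under 0.05. Past the mark of 0.4 were 6 of 378 pairs in post-PHx tumors (1.59%, against 2.21% of all pairs), all gains. In spontaneous tumors 10 of 378 pairs were past it (2.65%, against 3.56%), 4 gains and 6 losses. The median over all pairs of the list was -0.014 in post-PHx and -0.032 in spontaneous tumors. The genes named for their tumor values below, other than Trp53inp1 and Xrcc6, were chosen after the values were seen, most of them as those past the mark.

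Among p53 target genes (17 found), Trp53inp1, whose product helps p53 to induce cell death, had the highest single value of the list. It was 1.51 in PHx2F (2.85-fold) and 0.87 in Spon1M (1.82-fold), and it was -0.44 in Spon2M, where chromosome 4 as a whole was low (median -0.38). In PHx2F the raised run covered 10.6 Mb of chromosome 4 with 114 probes at a mean of 1.31 and also held Nbn (0.73), a subunit of the complex that senses double-strand breaks. In Spon1M the run around Trp53inp1 was 4.43 Mb long with a mean of 0.83, against a median of -0.21 for the rest of the chromosome. Further targets past the mark were Pmaip1, which encodes a pro-apoptotic protein (0.47 in Spon1M, chromosome 18 median 0.26), Tnfrsf10b, a death receptor (-0.51 in Spon5F, chromosome 14 median -0.47), and Plk3 (-0.42 in Spon2M, chromosome 4 median -0.38). Cdkn1a, which encodes the cell cycle inhibitor p21, stayed between -0.17 (Spon3F) and 0.088 (Spon1M), and Spon3F was at 0.024 without isolated probes, which left Spon6F lowest at -0.14.

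Among damage sensors, mediators and checkpoint effectors (15 found), Nbn and Cdc25c were past the mark in PHx2F (0.73 and 0.58) and Rad1 in PHx4M (0.53). Cdc25c, a phosphatase that drives entry into mitosis, was also at 0.42 in Spon1M (chromosome 18 median 0.26), and Clspn, the mediator of ATR signaling to CHK1, was at -0.48 in Spon2M (chromosome 4 median -0.38). The lowest single value of the list was that of the end joining gene Xrcc6 in Spon3F, -0.69, which was -0.086 without isolated probes. Xrcc3, a recombination gene, likewise went from 0.58 to 0.24 in Spon2M and from -0.62 to -0.16 in Spon3F. The end joining genes Lig4, encoding a DNA ligase, and Dclre1c, encoding the nuclease Artemis, were gained in post-PHx tumors, at 0.68 in PHx3M and 0.44 in PHx4M. Of the p53 family and regulators (11 found), none was past the mark. Cdkn2a, which encodes the Mdm2 inhibitor Arf and the cell cycle inhibitor p16, came nearest at -0.38 in Spon2M, the level of its chromosome 4 there (-0.38), and was at -0.45 without isolated probes.

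Own probes stood apart from their flanks in 9 of the 63 list genes, 5 higher and 4 lower, against 12.9% and 10.2% of all genes. Higher were Topbp1 (0.20 ± 0.039, above in 12 of 12 tumors), Wee1, Cdc25c, Xrcc2 and Ei24, and lower were Xrcc5 (-0.14 ± 0.029), Fas, Nbn and Nhej1. The window of Ei24 shared 18 of its 24 probes with that of Chek1.

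**Figure D5:**
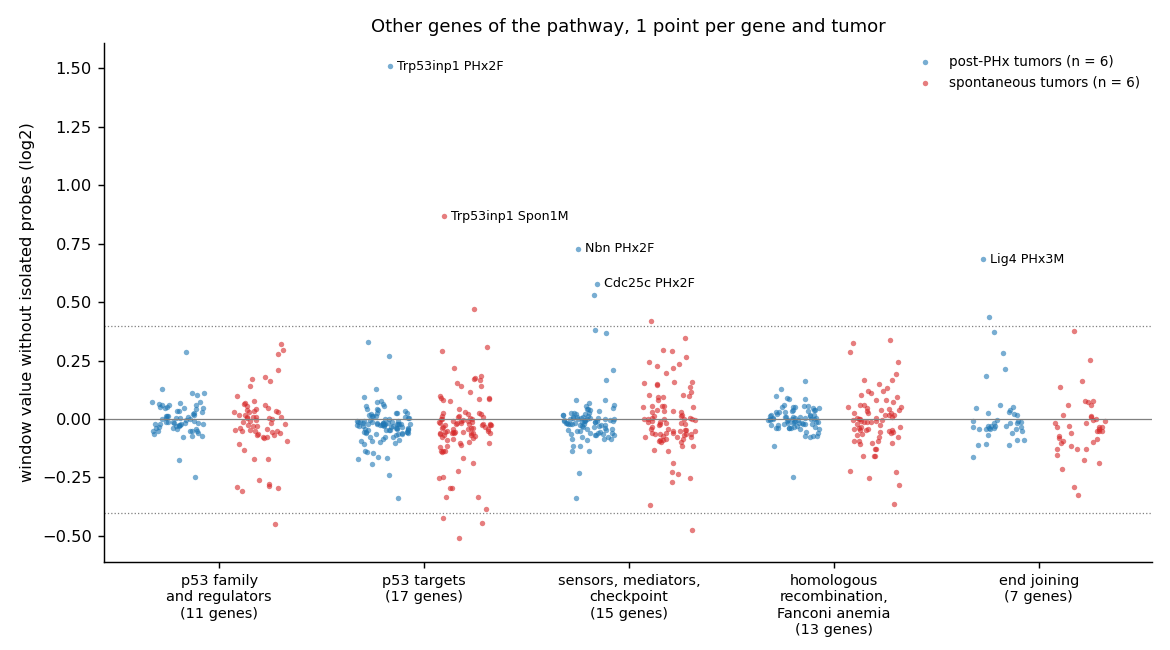
Window values without isolated probes (y axis, log2) of 63 other genes of the pathway in 5 roles (x axis), 1 point per gene and tumor, post-PHx in blue and spontaneous in red, with dotted lines at 0.4 and -0.4. Most points lay near 0, and Trp53inp1 stood apart in PHx2F (1.51) and Spon1M (0.87), with Nbn in PHx2F (0.73) and Lig4 in PHx3M (0.68).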

How the data were processed

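Array-based comparative genomic hybridization of 12 tumors was used, grouped by the titles in the labels. The authors deposited the Agilent Feature Extraction 10.5.1.1 output of each array, with probes placed on mm8 (NCBI36). The deposited log10 ratio, red (tumor) over green (matched liver), and its error come from processed signal intensities that the software had background-subtracted and dye-normalized. The deposited mean and background intensities were used for the normexp alternative, the channel shifts and the signal over background. The normexp ratios were centred on the autosomal median but not dye-normalized, so this alternative changed background correction and dye normalization together.

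Control spots and outlier-flagged spots were dropped, ratios were multiplied to give log2 values, repeated spots of 1 probe were replaced by their mean, and the autosomal median of the array was subtracted. Genes whose probes lie on 1 chromosome were kept. Window values and own minus flanking values of all 20466 genes were fitted in R 4.3.3 with the functions lmFit and eBayes of limma 3.58.1 (two-sided, p-values adjusted by Benjamini-Hochberg over all genes), with other steps in Python 3.11.15 (numpy 2.4.6, pandas 2.3.3, matplotlib 3.10.9). On simulated data for the comparison of groups (20466 genes, 200 changed), limma recovered 47.5% of shifts of 0.25, 87% of 0.5 and 98.5% of 1. False calls numbered 3, 15 and 14 in that order. Whether these shares hold where the groups differ in spread, or where 1 tumor alone is changed, was not tested. Arrays carry no counts, and the number of tumors limits the precision. P-values rest on 1 spread per gene, pooled over both groups of tumors, although the SD was larger in spontaneous tumors for 85.1% of all genes.

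All members are named, with each tumor's value or the range of the group. Of other pathway genes, up to 3 called genes per role, comparison and direction and the genes with the highest and the lowest value were named, with Abcb4 and the gene on another chromosome most like each member. The members and lists were chosen with earlier results of these data known. Alternatives were normexp, no or mode centring, well-above-background probes, 5 or 20 flanking probes, own probes alone, error weights, medians, slide, sex and replicate terms, slide 2 alone, other marks (0.25 and 0.6) and each tumor left out. Leaving out isolated probes, and leaving out Spon1M, Spon2M and Spon3F together, were chosen after seeing the data. The submitters' aberration calls were not used.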

Additional observations from a re-analysis of the deposited data

Results flagged for a closer look

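In 3 of the 16 sets of 6 window values (8 genes in 2 groups), 1 tumor lay farther from the others than the 95% critical value of Dixon's test allows, which chance does in about 1 of 20 sets. Over all 20466 genes the same was found in 15.9% of the sets of spontaneous and 16.9% of the sets of post-PHx tumors, against 3 and 0 of the 8 members. In all 3 sets the tumor was the highest of the spontaneous tumors. Atm in Spon1M was at 0.57, with the next tumor at 0.11 and a gap of 0.661 of the range. Mdm4 in Spon2M was at 0.41, with the next tumor at 0.024 and a gap of 0.831 of the range. Mdm2 in Spon4F was at 0.13, with the next tumor at -0.0055 and a gap of 0.782 of the range. None of these 3 values held an isolated probe, and with the median of the probes they were 0.58, 0.37 and 0.14.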

How the results depend on the processing

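Depth was not counted on these arrays, and the noise between probes, 0.147 to 0.265 (SD, log2), limits single genes with 2 or 3 probes. For the comparison of groups, no gene and no member was called under any alternative. The numbers 1 to 6 that both groups share did not pair the tumors, since deviations of same-numbered tumors correlated above 0.1 in 1 of 6 pairs (range -0.17 to 0.55, and only 1 tumor correlated best with its own number). With the replicate block, 0 genes were called between groups and 4347 for own against flanking probes. The cause of the changes below was not tested.

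Genes called in post-PHx tumors against 0 numbered 5 after normexp and 540 from own probes alone, and 0 in every fit that left out 1 tumor. In spontaneous tumors against 0 they numbered 807 after normexp, 307 with mode centring, 848 from own probes alone (4.14% of all genes, and 1 of 8 members, Brca1), 672 with slide as a random block, 1187 with sex as a covariate, and 0 to 604 with 1 tumor left out, 604 being without Spon5F. For own against flanking probes, 9270 genes were called after normexp, 1890 with slide as a random block and 3696 to 4933 with 1 tumor left out, against 4717. Of the 8 members, 6 were called after normexp (Trp53, Mdm4, Chek1 and Brca2 higher, Chek2 and Brca1 lower), against 45.3% of all genes, and 2 (Atm and Brca1) with 5 or 20 flanking probes, error weights, medians, without isolated probes and without Spon1M, Spon2M and Spon3F together, with 1 to 2 over fits that left out 1 tumor (2 without Spon1M or Spon3F). Where 2 members were called, 19.1% to 28.5% of all genes were, so that the members' share was near the background. Pairs of member and tumor past the mark numbered 1 in place of 3 after normexp, with 5 or 20 flanking probes, own probes alone, error weights or medians, 0 with a mark of 0.6, on slide 2 alone and without the 3 tumors of slide 3, and 1 to 3 with 1 tumor left out (1 without Spon2M). With a mark of 0.25 they numbered 4. At 0.4 the 3 pairs were 3.13% of 96, against 2.88% over all genes and tumors, and where 1 pair was left on 12 tumors (1.04%) the share over all genes was 2.49% to 6.85%. At 0.25 the shares were 4.17% and 7.97%, and at 0.6 they were 0% and 0.879%. In single tumors, 0% (PHx5M) to 6.74% (Spon1M) of all genes were past 0.4, and on slide 2 the highest share was 5.43% (Spon5F).

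Differences between the groups that changed sign, all far from being called, were as follows. Brca2 was at -0.012 after normexp, -0.00092 without centring, -0.0080 with 20 flanking probes, -0.060 from own probes alone, -0.00061 with medians and -0.00064 with sex as a covariate. Mdm4 was at 0.010 with mode centring, 0.051 with slide as a block and on slide 2 alone, and 0.085 without the 3 tumors. Brca1 was at -0.0012 with 20 flanking probes, -0.0041 with error weights, -0.033 with medians, -0.033 with slide as a block and on slide 2 alone, -0.012 with sex, -0.030 without isolated probes and -0.0066 without the 3 tumors. Mdm2 was at -0.039 from own probes alone, -0.0020 with error weights, -0.038 with medians and -0.017 without the 3 tumors, and Chek2 at 0.016 without the 3 tumors. With slide as a block and on slide 2 alone, Atm was at 0.031 and Chek1 at 0.060. Leaving out 1 tumor gave -0.020 to 0.073 for Mdm4, -0.14 to 0.0021 for Atm, -0.041 to 0.12 for Brca1 and -0.013 to 0.030 for Brca2.

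Own minus flanking values that changed sign were those of Chek2 (0.00013 with 20 flanking probes) and Mdm4 (-0.011 on slide 2 alone, -0.0016 without isolated probes, -0.0057 without the 3 tumors). Leaving out 1 tumor gave -0.013 to 0.011 for Mdm4, -0.032 to 0.016 for Chek2 and -0.038 to 0.011 for Mdm2. The window value of Brca1 in Spon2M was -0.16 from own probes alone.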

Other observations

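For each member, the gene on another chromosome with the most similar window values over 12 tumors was sought, as a description without a test, since probes of 1 array share the same noise and copy number state. Atm was most like AK043790 on chromosome 15 (Pearson r = 0.98 over 12 tumors), whose value in Spon1M was 2.29. Mdm4 was most like Lrrc8b on chromosome 5 (r = 0.969, 0.24 in Spon2M) and Chek2 most like AK133026 on chromosome 1 (r = 0.971, 0.19 in Spon2M). Brca1 was most like 2410018C17Rik on chromosome 5 (r = 0.99), which stood at 0.55 in Spon2M. Trp53 was most like Zfand2a on chromosome 5 (r = 0.937), Mdm2 like Glra4 on X (r = 0.931), Chek1 like V1re11 on chromosome 7 (r = 0.922) and Brca2 like AK015331 on chromosome 11 (r = 0.908).

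Abcb4, the gene disrupted in these mice, lies on chromosome 5, as Chek2 and Brca2 do. Its window value was 0.19 in PHx1M, 0.39 in PHx2F, 1.66 in PHx3M and 0.21 in Spon1M, and between -0.18 and 0.085 in the other 8 tumors. Chek2 and Brca2 in PHx3M were at 0.022 and 0.0096.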
